A study of Mus musculus with 15 samples.

Results

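The 8 genes described here carry out or steer the making, release, use and storage of glucose in the liver: Pck1, G6pc, Fbp1, Pcx, Ppargc1a, Slc2a2, Pklr and Gys2. They were chosen by name, as enzymes, a carrier and a coactivator of this pathway, from the 23589 loci with a gene name in the deposited table. Each name was found on 1 locus. Male C57BL/6 mice on 3 diets gave RNA for RNA-Seq from the liver, the hypothalamus, the hippocampus, the mucosa of the colon and the epididymal fat. The AL mice ate ad libitum and were killed at 5 months of age. The DR mice had 40% dietary restriction, that is 60% of the AL intake, for 1 month from 4 months of age and were also killed at 5 months. The DR-AL mice had the same month of DR and then 2 months of AL feeding, and were killed at 7 months, so that in this group the return to AL and the older age cannot be told apart. Every library held the pooled RNA of 5 mice, and there was 1 library for each of the 5 tissues and 3 diets, 15 in all.

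The liver keeps blood glucose steady by working in opposite directions in the fed and the fasted state. In the fasted state it makes glucose from lactate, amino acids and glycerol, and hormones such as glucagon and glucocorticoids raise the genes of this pathway. After a meal insulin lowers those genes, and glucose entering the hepatocyte is phosphorylated, stored as glycogen or broken down to pyruvate for the making of fat. Pcx (pyruvate carboxylase) and Pck1 (cytosolic phosphoenolpyruvate carboxykinase) take pyruvate around the irreversible last step of glycolysis. Fbp1 (fructose bisphosphatase) reverses the step of phosphofructokinase, and G6pc (the catalytic subunit of glucose-6-phosphatase) frees glucose for the blood. Ppargc1a encodes a coactivator that joins transcription factors on gluconeogenic and mitochondrial genes. Slc2a2 (GLUT2) is the glucose carrier of the hepatocyte membrane, Pklr is the pyruvate kinase of liver and red cells at the end of glycolysis, and Gys2 is the glycogen synthase of the liver.

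Promoters of 4 of these genes, picked with the liver results known, are shown because their regulation by hormones or glucose is well described. Each is the 250 bases before a RefSeq transcript start on GRCm38.p6, written in the direction of the gene. Capitals mark matches, on either strand, to the motifs searched. The CRE core is TGACG. The forkhead motif is TGTTTNC, which also covers the reverse of the FoxO core GTAAACA. The E-box is CACGTG and the TATA box TATAAA. The glucocorticoid half-site is TGTTCT. The carbohydrate response element is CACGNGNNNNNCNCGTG. The Pck1 window is chr2:173152823-173153072 (+), that of G6pc chr11:101367466-101367715 (+), that of Ppargc1a chr5:51567726-51567975 (-) and that of Pklr chr3:89136373-89136622 (+).
Pck1: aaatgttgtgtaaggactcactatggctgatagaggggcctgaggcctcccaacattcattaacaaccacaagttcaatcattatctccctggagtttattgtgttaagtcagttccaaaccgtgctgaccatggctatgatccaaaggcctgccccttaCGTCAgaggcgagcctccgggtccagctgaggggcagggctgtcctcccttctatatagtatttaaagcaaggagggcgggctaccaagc
G6pc: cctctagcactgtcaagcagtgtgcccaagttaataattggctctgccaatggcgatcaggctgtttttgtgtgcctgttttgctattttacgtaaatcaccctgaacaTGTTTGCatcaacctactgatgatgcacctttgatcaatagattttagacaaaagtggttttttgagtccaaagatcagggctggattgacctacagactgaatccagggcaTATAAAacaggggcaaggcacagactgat
Ppargc1a: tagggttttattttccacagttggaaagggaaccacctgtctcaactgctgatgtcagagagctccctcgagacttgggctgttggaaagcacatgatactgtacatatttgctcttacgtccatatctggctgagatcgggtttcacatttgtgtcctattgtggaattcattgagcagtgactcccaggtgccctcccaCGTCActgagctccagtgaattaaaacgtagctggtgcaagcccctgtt
Pklr: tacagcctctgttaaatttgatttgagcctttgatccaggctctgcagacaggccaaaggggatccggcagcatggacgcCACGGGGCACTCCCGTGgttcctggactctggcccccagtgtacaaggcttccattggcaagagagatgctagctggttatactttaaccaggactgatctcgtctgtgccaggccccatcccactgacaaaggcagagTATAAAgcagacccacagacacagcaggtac
The Pck1 and Ppargc1a windows each hold a CRE core on the opposite strand, beginning 90 and 49 bases upstream of the start. TGACG occurs on either strand in 17.8% of the 32851 RefSeq promoter windows of this length. G6pc holds a forkhead motif 141 bases upstream, a motif found in 17.8% of all windows, and a TATA box 29 bases upstream, found in 12.4%. The window of the second Pklr start holds a TATA box and, 170 bases upstream, the letters of a carbohydrate response element, the kind of site that the glucose-sensing factor of the Mlxipl gene reads. This last motif was searched for after the promoters had been seen, and it occurs in 13 windows, 0.0396% of all. RefSeq windows were found for 7 of the 8 genes, not for Gys2. In the Fbp1 and Slc2a2 windows and the first Pklr window none of the motifs searched was found, and the first Pcx window holds an E-box, found in 6.02% of windows. The FoxO core and the glucocorticoid half-site, found in 3.17% and 16.1% of all windows, matched in none of the windows of these genes. A match describes letters and not a bound site.

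Levels are given as CPM, the counts of a library scaled to a common total over named loci, and levels of different genes are compared only as FPKM, which is also scaled by length. Between 21767088 and 40500130 counts per library fell on named loci. The 3 liver libraries held hepatocyte markers at a similar summed level, with 99576, 104024 and 97706 CPM in the AL, DR and DR-AL libraries, over the 19 of 20 markers found, although Alb, the albumin gene, was listed at 0 in all 15 libraries. The AL library of epididymal fat stood apart. In it the 18 hepatocyte markers with a value lay at a median of 14.8% of their level in AL liver, against 0.132% in DR fat and 0.0258% in DR-AL fat. Libraries of a tissue were compared by the Z test of the study's methods on the square roots of normalized counts, with Benjamini-Hochberg adjustment over all genes tested in the tissue. Genes are called changed where the adjusted p was under 0.05 and the higher library exceeded the lower by at least 25%, the fold threshold. Despite the similar sums, single hepatocyte markers differed between the liver libraries. Of the 18 tested, 44.4% were called in DR and 38.9% in DR-AL relative to AL, and 66.7% between DR-AL and DR. Among all genes averaging 10 or more liver counts, the shares were 34.2%, 38.3% and 50.8%. Each tissue and diet has 1 library, so nothing here is checked by replicates. The test sets libraries and not diets against each other, and its exact 95% intervals hold counting error alone.

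In the liver the genes of the 4 enzymes of glucose production were lower in the DR library than in the AL library, and the pyruvate kinase and glucose carrier genes were higher. Of the 8 genes, 3 rose and 4 fell, and Gys2 did not pass the fold threshold. Among all 17408 genes tested in the liver, 28.0% were called changed between these libraries, 18.0% higher and 9.92% lower. The median log2 fold change was -0.12 over the 8 genes and 0.10 over all genes tested. In absolute size the median was 0.67 over the 8 genes and 0.29 over genes whose counts averaged 10 or more. Between DR-AL and AL liver, 5 genes fell and none rose, against a background of 30.9% of all genes called, 15.8% lower. Between DR-AL and DR liver, 2 rose and 5 fell, against 40.8% called, 16.9% higher and 24.0% lower. The DR-AL comparisons reuse the AL or the DR library, so the comparisons are not independent of each other.

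**Figure D1:**
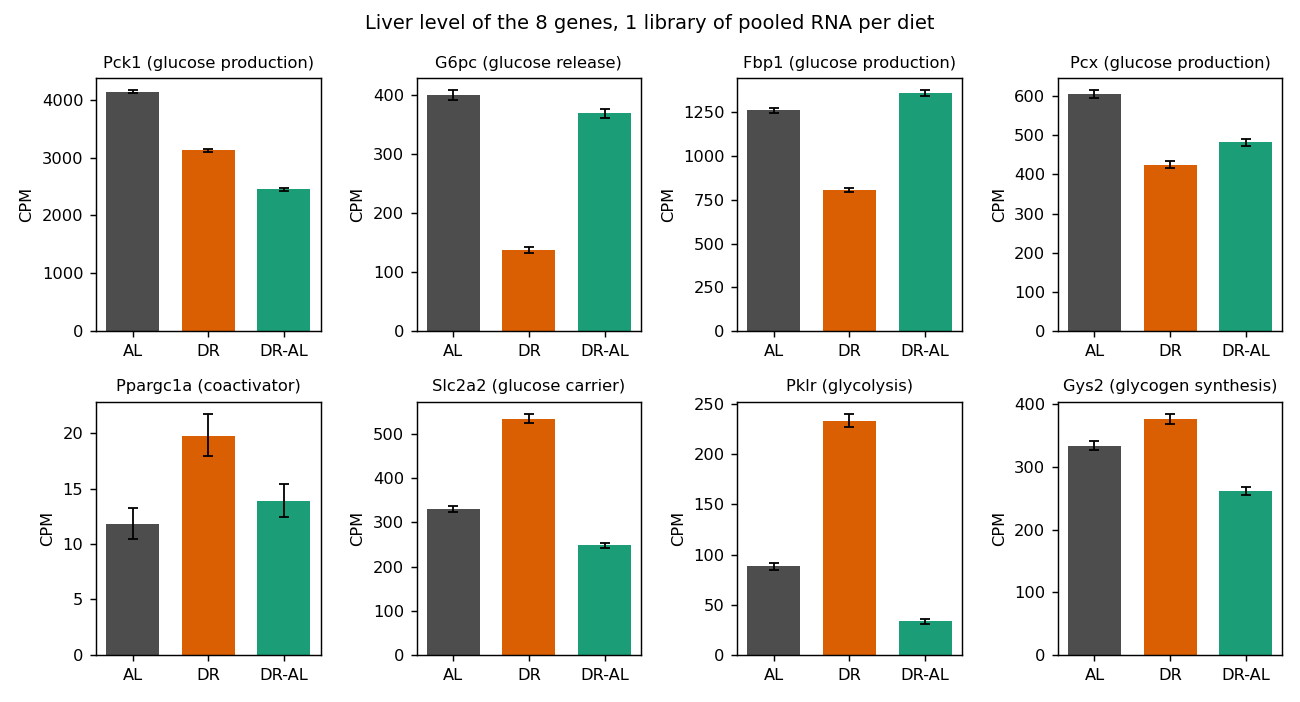
Liver level of the 8 genes in CPM on separate axes that start at 0, with 1 bar per library (AL, DR, DR-AL) and exact 95% intervals for counting error. G6pc, Fbp1 and Pcx were lowest in DR (137, 805 and 425 CPM), Slc2a2, Pklr, Gys2 and Ppargc1a were highest there, and Pck1 was lowest in DR-AL (2451 CPM).

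Pck1 lies at chr2:173153048-173159273 on the plus strand of GRCm38 and was the most abundant of the 8 genes per length in AL liver, at 3240 FPKM. Its liver level was 4136 CPM in AL, 3128 CPM in DR and 2451 CPM in DR-AL. It was thus highest in AL and lowest after the return to AL feeding, the only one of the 8 with this order. Pck1 fell by 0.40 on the log2 scale in DR (95% interval -0.42 to -0.39) and by 0.75 in DR-AL (-0.77 to -0.74), both relative to AL. The further step from DR to DR-AL, a log2 fold change of -0.35, passed the threshold with library totals, but was -0.24 and not called with DESeq size factors. The mitochondrial form Pck2, which carries out the same reaction inside mitochondria, had far lower CPM values, which are not scaled by length. These were 4.37 CPM in AL, 4.87 CPM in DR and 1.96 CPM in DR-AL. Pck2 was not called in DR and fell by 1.15 on the log2 scale in DR-AL.

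G6pc (chr11:101367561-101377903, plus strand) showed the deepest fall of the 8 genes in DR. It stood at 400 CPM in AL liver, 137 CPM in DR liver and 369 CPM in DR-AL liver. The DR library was 2.92-fold lower than AL (2.80 to 3.04), whereas the DR-AL library was 1.08-fold lower (1.05 to 1.11), which is under the fold threshold. From DR to DR-AL the level rose 2.70-fold. Slc37a4, which carries glucose-6-phosphate to the enzyme in the endoplasmic reticulum, moved the other way in DR, with 217 CPM in AL, 275 CPM in DR and 187 CPM in DR-AL. It rose by 0.34 on the log2 scale in DR, with a fold close to the threshold, and the DR-AL library did not pass it relative to AL (-0.21).

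Fbp1 (chr13:62864753-62888282, minus strand) had 1260 CPM in AL liver, 805 CPM in DR liver and 1359 CPM in DR-AL liver. AL and DR-AL lay close together and DR lay below both. The fall in DR was 1.57-fold (1.54 to 1.59), the rise from DR to DR-AL was 1.69-fold, and the difference of 0.11 on the log2 scale between DR-AL and AL was under the threshold. In the table the Fbp1 locus spans 42640 bases, against 23530 in the annotation, so that reads from beyond the annotated gene may be counted on it.

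Pcx (chr19:4510472-4621752, plus strand) had 604 CPM in AL liver, 425 CPM in DR liver and 482 CPM in DR-AL liver. Its level was thus highest in AL, as was that of G6pc. The fall in DR was 1.42-fold (1.39 to 1.46). The DR-AL library was lower than AL by 0.33 on the log2 scale, at the edge of the threshold, and this call was lost with each other scaling of the libraries. DR-AL and DR differed by 0.18 on the log2 scale, which is under the threshold.

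Ppargc1a (chr5:51454250-51567726, minus strand) was the least abundant of the 8 genes per length in AL liver, at 3.62 FPKM. It had 11.8 CPM in AL liver, 19.8 CPM in DR liver and 13.9 CPM in DR-AL liver, from 292, 430 and 340 counts. This coactivator of gluconeogenesis therefore had its highest liver level in the library in which G6pc, Fbp1 and Pcx had their lowest. The rise in DR was 1.67-fold (1.44 to 1.95). The DR-AL library was not called relative to AL, with a log2 fold change of 0.23 (0.00 to 0.46) and an adjusted p = 0.0929 by the Z test.

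Slc2a2 (chr3:28697903-28731359, plus strand) had 330 CPM in AL liver, 535 CPM in DR liver and 248 CPM in DR-AL liver. The level of this carrier was highest in DR and lowest in DR-AL. It rose 1.62-fold in DR (1.58 to 1.67) and was 1.33-fold lower in DR-AL than in AL (1.29 to 1.38). The latter call was lost when the deposited FPKM values were used in place of the counts. From DR to DR-AL it fell 2.16-fold.

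Pklr (chr3:89136142-89146784, plus strand) changed the most of the 8 genes once all 3 liver libraries are considered. Its level was 88.3 CPM in AL, 233 CPM in DR and 33.4 CPM in DR-AL. DR was 2.64-fold above AL (2.51 to 2.78) and DR-AL was 2.65-fold below it (2.44 to 2.87). Between DR-AL and DR the level fell 7.00-fold (6.50 to 7.54), and the absolute log2 fold change of 2.81 lay above that of 97.2% of the genes tested. This was also the only liver difference of the 8 genes still called when the spread between libraries was estimated from the 3 liver libraries without regard to diet. Over all 17408 genes tested, 161 were called for DR-AL against DR in this way. The Pklr locus in the table spans 27691 bases, against 10643 in the annotation, and shares its span with Hcn3, a channel gene on the opposite strand. Hcn3 had 73, 277 and 22 counts in AL, DR and DR-AL liver, in the same order as Pklr and far fewer. In the hypothalamus, where Hcn3 had 1473 to 1701 counts, Pklr had 16 to 29.

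Gys2 (chr6:142422613-142473109, minus strand) had the smallest difference between DR and AL of the 8 genes. It had 334 CPM in AL liver, 376 CPM in DR liver and 261 CPM in DR-AL liver, the same order as Slc2a2 and Pklr. The DR library was 1.13-fold above AL and was not called, while DR-AL was 1.28-fold lower than AL (1.24 to 1.32) and 1.44-fold lower than DR. Per length Gys2 stood near Pcx in AL liver, at 317 and 319 FPKM, below G6pc at 377 FPKM and Fbp1 at 1908 FPKM, and above Slc2a2 at 188 FPKM and Pklr at 67.2 FPKM.

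**Figure D2:**
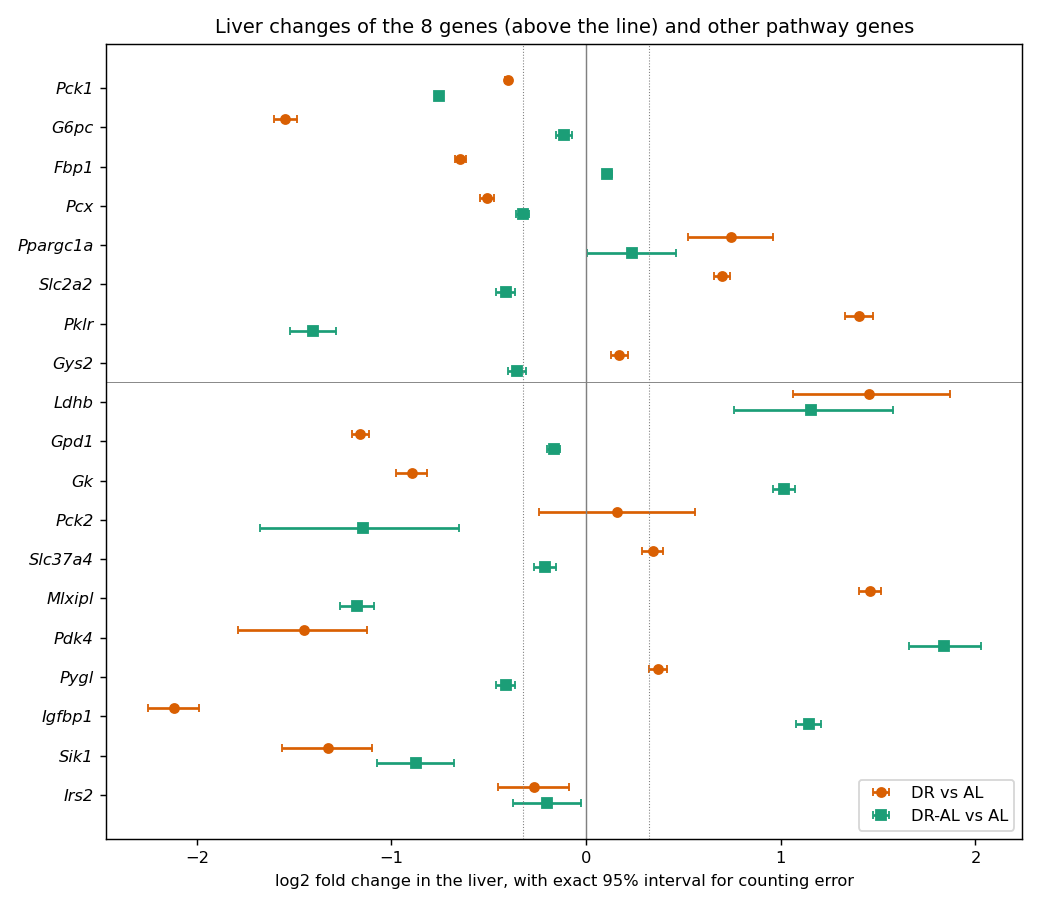
Log2 fold changes in the liver for DR against AL (circles) and DR-AL against AL (squares), with exact 95% intervals for counting error, for the 8 genes above the line and further genes of the pathway below it. Dotted lines mark the fold threshold. Igfbp1 (-2.12) had the largest change in DR of the genes plotted, and Pklr and Mlxipl lay on opposite sides of 0 in the comparisons.

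The other genes of the pathway were taken from 4 lists of 93 different genes that include the 8. Between DR and AL liver 29 of the 93 rose and 17 fell. With DESeq size factors, 39 were called and 46.2% of them rose, against 63.0% of 46 with library totals, and over all genes the share of higher calls went from 64.5% to 50.6%. Between DR-AL and AL liver 12 rose and 31 fell, so that 27.9% of the called pathway genes were higher, against 48.7% of all called genes. Between DR-AL and DR liver 16 rose and 39 fell, 29.1% higher against 41.3% of all called genes, and with DESeq size factors 38.0% against 51.1%. Among all genes averaging 10 or more liver counts, the share called was 34.2% for DR against AL, 38.3% for DR-AL against AL and 50.8% for DR-AL against DR, and the calls of the lists below stand beside these shares.

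Glucose uptake and glycolysis was the list with the most calls on the higher side in DR. Of its 22 genes, 13 rose and 1 fell, and the median on the log2 scale was 0.53. These 14 calls were 63.6% of the list. In DR-AL 2 rose and 11 fell relative to AL, with a median of -0.28, and relative to DR 2 rose and 15 fell, with a median of -0.76. Mlxipl, the glucose-sensing factor that acts on the Pklr promoter, had 145 CPM in AL, 399 CPM in DR and 64.4 CPM in DR-AL. It rose by 1.46 on the log2 scale in DR and fell by 1.18 in DR-AL, the directions seen for Pklr. Pdk4, the kinase that shuts pyruvate dehydrogenase in fasting, was the gene of this list that fell in DR, with 12.7 CPM in AL, 4.64 CPM in DR and 45.5 CPM in DR-AL. It rose by 1.84 on the log2 scale in DR-AL relative to AL.

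The gluconeogenesis list of 24 enzymes and carriers was split in DR, with 5 genes higher and 9 lower, 58.3% called. The median of their log2 fold changes was 0.08. Pck1, G6pc, Fbp1 and Pcx were among the 9. Gpd1, the cytosolic glycerol-3-phosphate dehydrogenase, had 589 CPM in AL, 264 CPM in DR and 525 CPM in DR-AL and fell 2.23-fold in DR. Gk, the glycerol kinase (listed under its older name Gyk), had 155, 83.4 and 315 CPM in AL, DR and DR-AL, so that the enzymes that bring glycerol into the pathway were both lowest in DR. Ldhb, a lactate dehydrogenase subunit of low level in the liver, rose by 1.45 on the log2 scale in DR (2.99 to 8.22 CPM) and by 1.16 in DR-AL. In DR-AL 6 genes of this list rose and 5 fell relative to AL, with a median of -0.02. Relative to DR 8 rose and 6 fell.

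Of the 19 glycogen genes, 7 rose and 2 fell in DR (47.4% called), with a median of 0.25 on the log2 scale, and 3 rose and 7 fell in DR-AL relative to AL, with a median of -0.20. Relative to DR, 3 rose and 9 fell in DR-AL. Pygl, the liver glycogen phosphorylase, had 295 CPM in AL, 381 CPM in DR and 222 CPM in DR-AL, the same order of libraries as Gys2. Pygl rose by 0.37 on the log2 scale in DR, with a fold close to the threshold, which the Gys2 level did not pass. DESeq size factors lowered the log2 fold change of Gys2 in DR from 0.17 to 0.08, so such contrasts depend on the scaling. Among the subunits that bring protein phosphatase to glycogen, Ppp1r3c rose by 0.66 in DR and Ppp1r3g fell by 1.39. Pgm1, a phosphoglucomutase, rose by 0.65 in DR and by 1.58 in DR-AL, with 62, 86 and 185 counts in the AL, DR and DR-AL libraries.

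Of the 28 regulators of the pathway, 4 rose and 5 fell in DR, and 1 rose and 8 fell in DR-AL relative to AL. Both counts are 32.1% of the list, near the shares over all genes. Relative to DR, 3 rose and 9 fell. Igfbp1, an insulin-repressed gene that encodes a binding protein for insulin-like growth factors, had 112 CPM in AL, 25.8 CPM in DR and 247 CPM in DR-AL. It fell 4.34-fold in DR (3.96 to 4.76) and was 2.21-fold higher in DR-AL than in AL, and like G6pc it was lowest in DR. Sik1, a kinase that restrains the CRE pathway, fell by 1.33 on the log2 scale in DR and by 0.87 in DR-AL. Crebbp, a coactivator at CRE sites, rose by 0.65 in DR and was not called in DR-AL (-0.14). Irs2, an adaptor of the insulin receptor that is raised in fasting, had 23.8, 19.8 and 20.7 CPM in AL, DR and DR-AL and was not called in either comparison with AL.

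**Figure D3:**
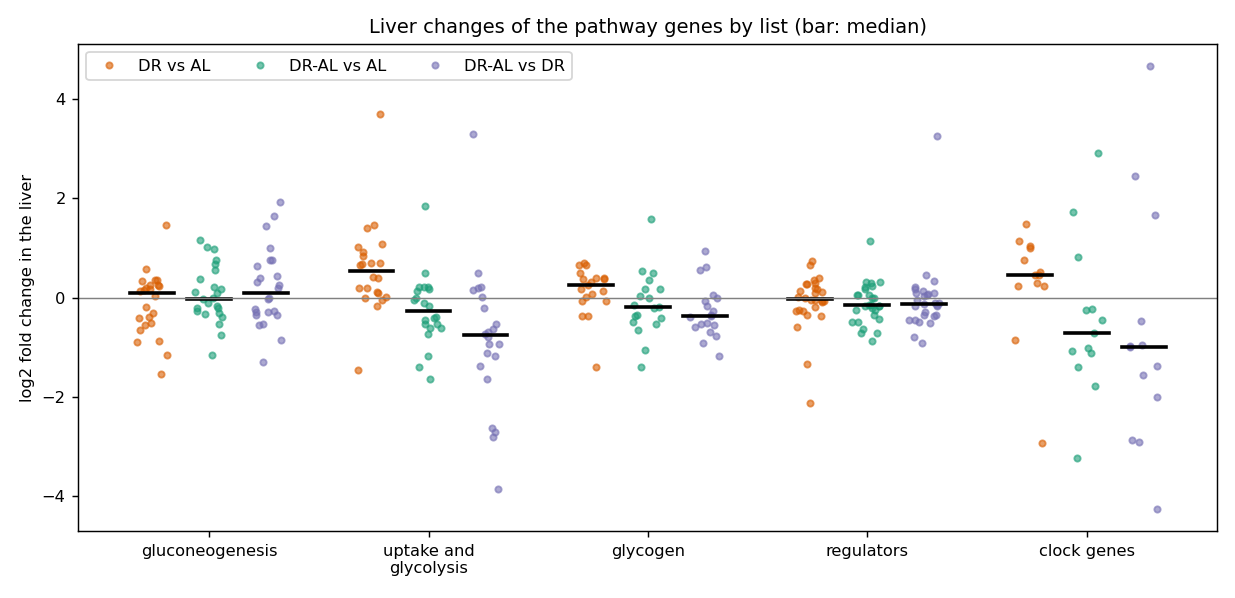
Log2 fold changes in the liver of the genes of the 4 pathway lists and of the clock genes, 1 point per gene, with the median of each list as a bar, for the 3 comparisons of libraries. The medians of glucose uptake and glycolysis were 0.53, -0.28 and -0.76, and those of the clock genes were 0.46 in DR and -0.72 in DR-AL relative to AL.

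Other groups of liver genes moved between the same libraries. Of the 13 clock genes tested, 7 rose and 2 fell in DR, and 3 rose and 8 fell in DR-AL relative to AL. These calls were 69.2% and 84.6% of the list, against 28.0% and 30.9% of all genes. Among all genes averaging 10 or more liver counts, the shares were 34.2% and 38.3%. Dbp, an output gene of the clock, had 57.3 CPM in AL, 127 CPM in DR and 16.8 CPM in DR-AL, the order of Pklr, and Arntl, a core clock factor of opposite phase, had 2.59, 0.32 and 8.61 CPM. Many genes of glucose metabolism, Pck1, G6pc and Slc2a2 among them, have a daily rhythm in the liver. The time of day at which tissue was taken is not given in the sources used here, and its part in the results was not tested. Of the 10 markers of pericentral hepatocytes, which lie where glycolysis is higher, 1 rose and 4 fell in DR and 6 fell in DR-AL, with medians of -0.16 and -0.74. Glul, glutamine synthetase, had 1355 CPM in AL, 1330 CPM in DR and 598 CPM in DR-AL. The 9 tested markers of periportal hepatocytes, where glucose production is higher, gave 2 higher and 1 lower in DR and 1 of each in DR-AL. The part of these shifts in the results was not tested, and in bulk tissue fewer cells of a type and less RNA per cell cannot be told apart.

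For each of the 8 genes, the pair of genes nearest in the liver pattern was found among the other genes averaging at least 500 liver counts, 5072 for most. The measure was the Euclidean distance between their log2 fold changes in DR and DR-AL relative to AL, over 3 libraries. Nearest to Pklr was the clock gene Per2 (distance 0.07), with 587, 1435 and 221 counts in AL, DR and DR-AL, followed by Cyp2c70. Nearest to Fbp1 was Klf9 (0.02), a target of the glucocorticoid receptor, with 4409, 2467 and 4664 counts, followed by Cmtm4. G6pc lay nearest to Rnf125 and Paqr7, Pck1 to Eef2 and Chd4, and Pcx to Clec4f and Gpx1. Ppargc1a lay nearest to Qdpr and 2310036O22Rik, Slc2a2 to Scaf1 and Ccnt2, and Gys2 to Rnps1 and Inpp5e. With 3 libraries many genes have nearly the same pattern, so that nearness says little about any gene named here.

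Across the tissues, 6 of the 8 genes had their highest mean CPM over the 3 diets in the liver, whereas Pcx was highest in fat and Ppargc1a in the colon. The order for Pcx depends on the unit, since its FPKM were 208, 280 and 28.0 in AL, DR and DR-AL fat against 319, 218 and 261 in the liver, and how the FPKM were scaled between libraries is not given in the sources used here. G6pc, Slc2a2 and Gys2 were at most at 0.321 CPM in the colon, hypothalamus and hippocampus. Pklr was at 85.7, 82.2 and 77.9 CPM in AL, DR and DR-AL colon, which put the colon level at 97.1%, 35.2% and 233% of the liver level on the same diets. None of the Pklr comparisons in the colon was called. On the FPKM scale Pklr was at 34.8, 34.0 and 32.8 in the colon and at 67.2, 158 and 24.9 in the liver. Pck1 was at 175, 172 and 185 CPM in the colon, also with no call. In the colon Fbp1 was low, at 2.97, 1.71 and 2.04 CPM, and its paralog Fbp2, the form best known from muscle, was at 162, 160 and 170 CPM.

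**Figure D4:**
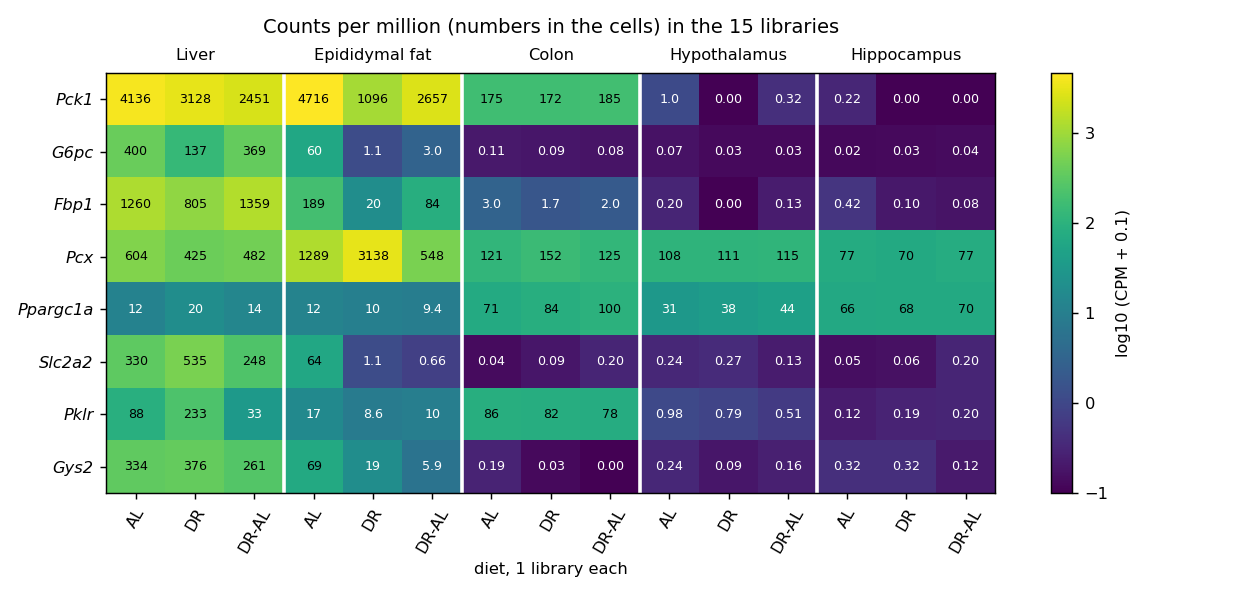
CPM of the 8 genes in the 15 libraries, printed in the cells and coloured on a log10 scale after adding 0.1. G6pc, Slc2a2 and Gys2 were near 0 outside liver and fat, while Pcx and Ppargc1a were present in all libraries.

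In CPM, Ppargc1a had a higher level in the colon, hypothalamus and hippocampus than in the liver on each diet. On the FPKM scale this was so for the colon and the hippocampus, while the hypothalamus was at 2.75, 3.26 and 4.07 FPKM and the liver at 3.62, 5.56 and 4.03. Ppargc1a had 70.7, 84.0 and 99.9 CPM in AL, DR and DR-AL colon, and rose 1.41-fold in DR-AL relative to AL. In the hypothalamus it had 31.3, 38.4 and 44.5 CPM and rose 1.42-fold in DR-AL. In the hippocampus its level was 66.0, 67.6 and 69.8 CPM and was not called. Pcx, which also refills the citric acid cycle in tissues that make no glucose, was at 121, 152 and 125 CPM in the colon and was called higher in DR, with a log2 fold change of 0.33 at the edge of the threshold. It was at 108, 111 and 115 CPM in the hypothalamus and 76.5, 69.9 and 77.1 CPM in the hippocampus, with no call.

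The calls in the colon were 2 of 8 genes in DR and 2 in DR-AL relative to AL, against 19.7% and 14.3% of all genes, and none between DR-AL and DR (14.5%). Beside Pcx in DR and Ppargc1a in DR-AL, the genes called were Fbp1 in DR and Gys2 in DR-AL. Fbp1 had 79 counts in AL colon and 57 in DR colon. Gys2 had 5 counts in AL colon and 0 in DR-AL colon, and its exact 95% interval included no change. In the hypothalamus 2 genes were called in DR, 2 in DR-AL relative to AL and 2 between DR-AL and DR, against 7.05%, 15.1% and 9.62%. In the hippocampus the counts were 2, 2 and 0, against 4.03%, 6.15% and 4.88%. Most of the calls in the brain rested on few counts. Pck1 had 30, 0 and 10 counts in AL, DR and DR-AL hypothalamus, so that DR was at least 11.0-fold lower than AL when 3 counts are taken as the limit that a count of 0 allows. Pck1 had 9, 0 and 0 counts in the hippocampus, where DR was at least 2.31-fold lower. These bounds leave out the counting error of the AL libraries, and the exact 95% intervals that include it begin at 8.43-fold and 1.52-fold. Fbp1 had 6, 0 and 4 counts in the hypothalamus and 17, 3 and 2 in the hippocampus. The 18 hepatocyte markers had medians of 0.0217%, 0.00705% and 0.0133% of their liver level in AL, DR and DR-AL hypothalamus, and of 0.00639%, 0.00267% and 0.00305% in the hippocampus. They were thus highest in the AL library of each tissue, as Pck1 and Fbp1 were, and their part in these calls was not tested.

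In epididymal fat Pcx had a higher CPM than in the liver on each diet. The CPM of Pck1 was 114%, 35.0% and 108% of that in AL, DR and DR-AL liver. On the FPKM scale Pck1 was lower in fat on each diet, at 1180, 160 and 213 in AL, DR and DR-AL. The liver was at 3240, 2226 and 1886 FPKM. Pck1, which in adipocytes makes the glycerol backbone of stored fat, had 4716 CPM in AL, 1096 CPM in DR and 2657 CPM in DR-AL. It fell by 2.11 on the log2 scale in DR and by 0.83 in DR-AL, and from the FPKM the latter difference was -2.47. Pcx, which supplies oxaloacetate for the making of fat, had 1289 CPM in AL, 3138 CPM in DR and 548 CPM in DR-AL, and rose 2.44-fold in DR while it fell 2.35-fold in DR-AL. In the liver Pcx had its lowest level in DR. Of the 8 genes, 1 rose and 6 fell in DR fat, all 8 fell in DR-AL fat relative to AL, and 3 rose and 2 fell between DR-AL and DR fat. The backgrounds in fat were 45.6%, 57.9% and 51.6% of all genes called. In DR fat 35.2% of all genes were higher and 10.4% lower, in DR-AL fat 11.9% were lower than in AL, and between DR-AL and DR fat 38.3% were higher and 13.3% lower. On the deposited FPKM with a pseudocount of 0.1 the log2 fold change of Pcx in DR fat was 0.43 in place of 1.28.

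A further 6 genes were, like the hepatocyte markers, highest in the AL library of fat. G6pc had 59.9, 1.10 and 2.96 CPM in AL, DR and DR-AL fat, and Slc2a2 had 64.2, 1.10 and 0.66 CPM. Fbp1 had 189, 19.7 and 83.6 CPM, Gys2 had 69.1, 19.1 and 5.92 CPM, and Pklr had 16.6 CPM in AL and less in DR (8.63 CPM) and DR-AL. Ppargc1a had 12.1, 10.3 and 9.43 CPM and fell by 0.36 on the log2 scale in DR-AL relative to AL. The hepatocyte markers had a summed level of 21853 CPM in AL fat, 6444 CPM in DR fat and 5025 CPM in DR-AL fat. Of the 18 with a value, 16 were under 1% of their liver level in both DR and DR-AL fat, and the exceptions were Cyp2e1 and Hp. The median marker share multiplied by the AL liver level came to 98.6% of the G6pc level in AL fat, 98.7% of Fbp1, 78.8% of Pklr, 76.0% of Slc2a2 and 71.4% of Gys2. It came to 13.0% of Pck1, 6.93% of Pcx and 14.4% of Ppargc1a. In DR fat the same product was 64.4% of the Slc2a2 level, 16.5% of G6pc, 5.39% of Fbp1 and under these for the other genes. In DR-AL fat it was 9.71% of the Slc2a2 level, 3.21% of G6pc and 0.419% of Fbp1. The fat libraries differed in other markers too, with 10 adipocyte markers at a summed 48476, 40106 and 34635 CPM and 8 testis germ cell markers at 5.53, 613 and 3084 CPM in AL, DR and DR-AL, and their part in the results was not tested.

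**Figure D5:**
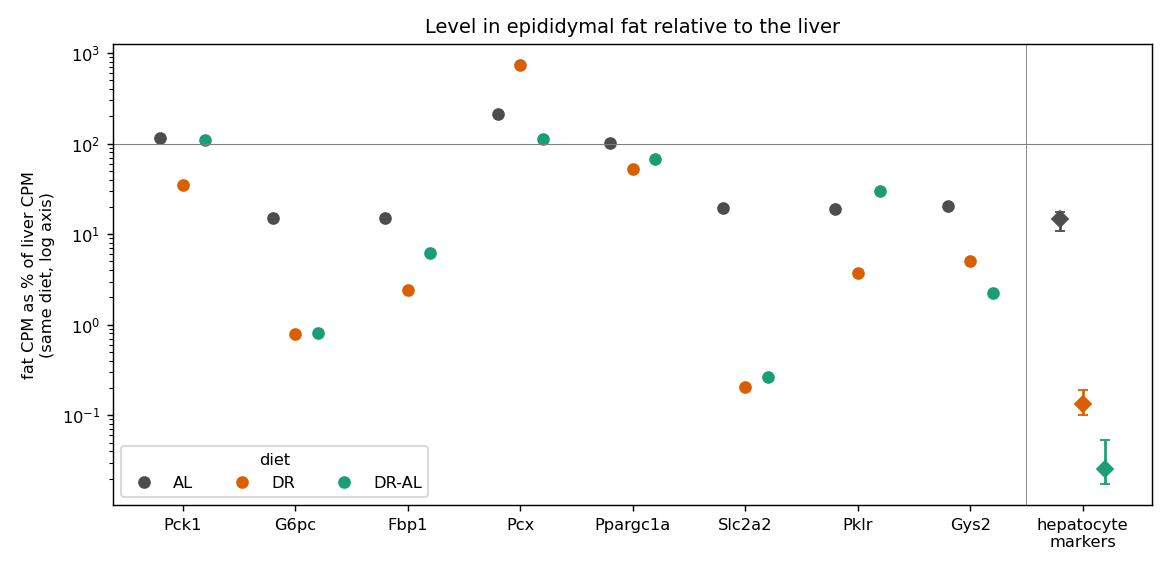
Level in epididymal fat as a percentage of the liver level on the same diet, on a log axis, for the 8 genes, and for 18 hepatocyte markers as the median with the lower and upper quartile. All 8 genes lay above the marker median on every diet, and in AL G6pc and Fbp1 lay closest to it (14.8%).

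A shift common to the 5 tissues was fitted in edgeR (quasi-likelihood test, a term for tissue) on all 15 libraries. None of the 8 genes was called for DR or for DR-AL at an adjusted p under 0.05, where all 17476 genes tested gave 2 and 1 calls, 0.0114% and 0.00572%. At an unadjusted p under 0.05 there were 3 of the 8 in DR (G6pc, Fbp1 and Pck1) and 2 in DR-AL (G6pc and Gys2), where 3.76% and 4.93% of all genes tested were under it. The shared log2 fold change in DR was -3.58 for G6pc (SE 0.97) and -1.86 for Fbp1 (SE 0.48), with an adjusted p = 1.00 for both by edgeR. G6pc was lower in 4 of 5 tissues and Fbp1 in 5 of 5. The G6pc counts in AL and DR were 3 and 3 in the colon, 2 and 1 in the hypothalamus and 1 and 1 in the hippocampus. In AL fat the median marker share multiplied by the liver level came to 98.6% of the G6pc level and 98.7% of Fbp1. DESeq2 called 1 of the 8 in DR, Fbp1, with an adjusted p = 0.0409, among 22 calls over 18319 genes. Without the fat libraries edgeR called G6pc in DR with an adjusted p = 0.0278, among 19 calls over 17273 genes. In that fit G6pc had at most 3 counts in each library outside the liver. The other alternative fits called none of the 8. Outside liver and fat both genes are at few counts, and the tissues come from the same mice.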

How the data were processed

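RNA-Seq was analysed for 5 tissues and 3 diets, with 1 library from RNA of 5 pooled mice for each, grouped by the tissue and diet in the labels. According to the methods, the authors prepared stranded libraries after removal of ribosomal RNA, trimmed the reads, aligned them to mm10 with Strand software, removed duplicates and used the DESeq algorithm. The labels name mm9 and DESeq2 instead. The positions in the table overlap GRCm38 for 1 of the 8 genes, so coordinates are those of GENCODE M21 on GRCm38. The authors deposited counts as whole numbers per locus without normalization, and FPKM values whose scaling between libraries is not given in the sources used here. All 30 value columns were used.

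Counts on the 23589 named loci (loci without a name took 0.258% to 1.39%) were scaled to their total. The Z test, with the Poisson variance of square roots, was adjusted over genes with at least 1 count in the 3 libraries of a tissue. For log2 fold changes, counts were brought to the average total of the 3 libraries compared and 0.5 was added. Intervals are exact Clopper-Pearson 95% intervals, and a count of 0 was taken to allow 3 counts. The shared effect was fitted with edgeR 4.0.16 (TMM, filterByExpr, quasi-likelihood), with DESeq2 1.42.0 as an alternative. Other steps used R 4.3.3, Python 3.11.15, numpy 2.4.6, pandas 2.3.3, scipy 1.17.1 and matplotlib 3.10.9. Where a listed gene had several loci, the locus with the most counts was used. Alternatives were other scalings, a filter at a mean of 10 counts, FPKM with pseudocounts of 0.1 and 1, the exact test of edgeR with a set (0.1) or estimated coefficient of variation between pools, a fold of 2, and each tissue left out. The depth of 21767088 to 40500130 counts makes counting error small for liver genes, while the spread between pools is unknown. The Z test and the shared fit were tested on simulated data. Those for the Z test held counting error alone, and those for the shared fit had a set spread and the same fold in every tissue. They therefore say nothing about the spread between these pools.

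The genes and lists were chosen with earlier results of these data known. Genes named beside the 8 were, per pathway list, the 4 called genes with the largest change in DR liver and a mean of at least 100 counts, with Pck2, Igfbp1, Irs2, Pdk4, Pygl, Slc37a4, Alb, Glul, Dbp and Arntl, and the 2 nearest patterns per gene. Hcn3, Fbp2, Cyp2e1 and Hp were named after their values were seen. Some genes that this rule names are not reported here.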

Additional observations from a re-analysis of the deposited data

Results flagged for a closer look

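The log2 fold changes of 5 of the 8 genes had opposite signs in 2 tissues, with both called. Each tissue has 1 library per diet, so these differences between tissues were not tested. The share of all genes with such opposite calls was not counted, so 5 of 8 cannot be called unusual. Calls were common among all genes tested, at 28% in the liver and 45.6% in fat for DR against AL. Between DR and AL, Pklr rose in the liver (1.40) and fell in fat (-0.94), with a difference of fat minus liver of -2.34. Slc2a2 rose in the liver (0.70) and fell in fat (-5.85), with a difference of -6.55. The AL fat library holds hepatocyte markers, and the median marker share multiplied by the liver level came to 78.8% of the Pklr level and 76.0% of the Slc2a2 level in AL fat. Pcx fell in DR liver (-0.51) and rose in DR fat (1.28), a difference of 1.79, and it rose in DR colon (0.33), a difference of colon minus liver of 0.84. For Pcx the same product came to 6.93% of the level in AL fat. Between DR-AL and DR, Pck1 fell in the liver (-0.35) and rose in fat (1.28), a difference of 1.63. This opposition depends on the scaling, since from the FPKM with a pseudocount of 0.1 the values were -0.24 and 0.42, and the liver call was lost with the FPKM, DESeq size factors and TMM. Between DR-AL and AL, Ppargc1a fell in fat (-0.36) and rose in the colon (0.50) and hypothalamus (0.50), with differences from fat of 0.86 and 0.87.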

How the results depend on the processing

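No liver difference of the 8 genes changed direction under the other scalings or with the FPKM. The filter, the exact tests and the fold of 2 reuse the same fold changes, so they could not change a direction. Of the 216 values that all alternatives gave for these differences, 167 kept their side of the threshold and 49 lost the call. The log2 fold change of Pklr between DR-AL and DR ranged from -2.82 to -2.62, and that of G6pc between DR and AL from -1.67 to -1.52. Under the spread estimated over the 3 libraries of a tissue (coefficient of variation 0.309 for liver), the liver counts of called genes went from 7, 5 and 7 (DR against AL, DR-AL against AL, DR-AL against DR) to 0, 0 and 1. Over all 17408 genes tested in the liver, the calls went from 4867, 5375 and 7111 to 76, 77 and 161. In the other tissues the calls of the 8 genes went from 13, 14 and 7 to 1, 1 and 0. Over all 20382 genes tested in fat, the calls went from 9296, 11802 and 10517 to 3, 1236 and 1. Of the pathway genes, 1, 0 and 2 were then called higher and 0, 0 and 4 lower. This spread includes any effect of diet. With a coefficient of variation of 0.1, DR-AL against AL gave 2 liver genes. The other tissues gave 8 and 7 calls in the comparisons with AL, where 5838 and 8916 of all genes were called in fat. The pathway genes gave 16 higher and 10 lower in DR and 14 lower in DR-AL. In the liver 1540 and 1845 of all genes were then called in DR and DR-AL relative to AL. At a fold of 2, the liver counts were 2, 1 and 3, where 1447, 1452 and 2582 of all genes were called. DR-AL against AL gave 9 calls in the other tissues, where 6822 of all genes were called in fat. The pathway genes gave 6, 5 and 5 higher and 6, 5 and 10 lower. From FPKM, DR-AL against AL gave 3 liver genes with either pseudocount, where 5196 and 4549 of all genes were called. DESeq size factors and TMM each gave 18 pathway genes higher in DR in place of 29, and moved the median of all genes between DR and AL liver from 0.08 to -0.01. Without the fat libraries, an alternative added after the data were seen, the other tissues gave 6, 6 and 2 calls. The effect shared by tissues gave 0 to 1 of the 8 genes when each tissue was left out, against 1 to 19 of all genes. The call was G6pc in DR without fat, where it had at most 3 counts in each library outside the liver. DESeq2 gave 1 of the 8 in DR, against 22 of all genes. The labels number no replicates, so libraries were not paired by replicate. The shared fit compares diets within tissues, and without its tissue term it called 0 genes in both comparisons. The alternatives for the other tissues and the pathway lists were also added after the data were seen. The cause of these changes was not tested.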
